A study of Mus musculus with 2 samples.

Results

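H19, Igf2, Cdkn1c, Igf2r and Phlda2 are imprinted mouse genes that act in the control of growth, and they are described here across the cell states of pooled mouse embryonic stem (ES) cell lines and between an early and a later passage. They were chosen by gene symbol, 5 of the 32285 genes in the count tables, and each symbol matched 1 gene. The low level of H19 at the later passage in these same libraries was known when they were chosen, so the passage values of H19 are a description. The lines came from C3H/HeSn-Paf/J embryos, with 3 independently derived lines of each chromosomal sex, XX, XO and XY, and all 9 were pooled. They were grown in serum and LIF on irradiated mouse embryonic fibroblast feeders, so that feeders are present among the cells. One 10x Genomics 3' gene expression library was made at an early passage, called time 1, and 1 library after 10 more passages, called time 2. No file assigns a cell to its line, so each library is 1 sample.

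Imprinted genes are transcribed mainly from the allele inherited from 1 parent, under the control of a nearby region that is methylated on 1 parental chromosome. H19 is a long noncoding RNA expressed from the maternal allele, and Igf2, its neighbour, encodes insulin-like growth factor 2, a fetal growth factor expressed from the paternal allele. Both use enhancers lying beyond H19, and CTCF binding to the unmethylated maternal control region keeps those enhancers from Igf2. Cdkn1c encodes the cyclin-dependent kinase inhibitor p57, and Phlda2 encodes a pleckstrin homology domain protein that restrains placental growth. Both are expressed from the maternal allele under a second control region, which is the promoter of the noncoding RNA Kcnq1ot1. Igf2r encodes a receptor that binds IGF2 and carries it to lysosomes for degradation. In ES cells these imprints are known to differ between lines and with time in culture. The 3' counts carry no allele information, so imprinting itself was not measured.

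In GRCm38, H19 (ENSMUSG00000000031) lies on chromosome 7 from 142575529 to 142578143 on the minus strand. Igf2 (ENSMUSG00000048583) lies at 142650766 to 142666816 of chromosome 7, Cdkn1c (ENSMUSG00000037664) at 143458339 to 143461050 and Phlda2 (ENSMUSG00000010760) at 143501545 to 143503150, all on the same strand. Igf2r (ENSMUSG00000023830) lies on chromosome 17 from 12682406 to 12769664, also on the minus strand. Antisense genes overlap Igf2 (Igf2os), Cdkn1c (Gm44732) and Igf2r (Airn). Their counts were low, Airn being the highest of them at 0.496 CPM (UMIs of the gene per 1000000 UMIs) at time 1 and 0.328 at time 2. A gene model that overlaps Igf2 on the same strand in the GENCODE annotation was not counted in these tables, so its reads cannot be told apart from those of Igf2.

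H19 also hosts the microRNA miR-675, and a UMI of H19 counts RNA of the gene, not the mature microRNA, and does not show whether its transcript holds the hairpin. The hairpin lies at chr7:142577064-142577147 on the minus strand, inside exon 1 of the longest annotated H19 transcript, where it takes bases 997 to 1080 of 2286, and 3 of the 7 annotated H19 transcripts hold it. The mature sequences from RefSeq (GRCm38.p6) are shown 5′ to 3′ to give a processed product of H19, the member that differed most between the libraries, with the seed (bases 2 to 8) in capitals. The arms have different seeds.
mmu-miR-675-5p: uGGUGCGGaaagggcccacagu
mmu-miR-675-3p: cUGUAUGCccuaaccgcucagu

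After filtering, 23196 cells remained at time 1 and 25522 at time 2, and 159 cell barcodes occurred in both. Outside the feeders there were 22775 cells with a median of 44374 UMIs at time 1 and 24824 cells with a median of 50253 UMIs at time 2. All 12 pluripotency markers were detected outside the feeders in each library, with a summed level of 7683 CPM at time 1 and 6236 CPM at time 2. The cells fell into 15 clusters, made from autosomal genes without the members or their neighbours and called here by their leading gene. The fibroblast-like feeders were the Mgp-led cluster, with 421 and 698 cells. Cluster makeup differed between the libraries: the Rhox9-led pluripotent-like cluster had 6771 cells at time 1 and 776 at time 2, the Sema6a-led primed epiblast-like cluster 7485 and 461, and the Mras-led pluripotent-like cluster 86 and 11606. With 1 library per time there is no replicate, no test was made, and every interval below is a 95% interval that covers counting error only (exact Poisson for CPM, exact Clopper-Pearson for shares).

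H19 was the member whose level differed most between the passages. Outside the feeders it was at 101.6 CPM (101.0 to 102.2) at time 1, against 19.7 CPM (19.5 to 19.97) at time 2, or 5.15-fold lower and -2.31 on the log2(CPM + 1) scale used for all ratios here. Of the 9385 genes that reached 5 CPM at time 1 or time 2, 3.3% were lower at time 2 by at least 2-fold and 1.07% were higher, and the median ratio was -0.048. Among the members, 4 of 5 reached that level and H19 alone was past 2-fold. It ranked 5 from the lowest of all genes tested.

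The other members moved little when all cells outside the feeders were summed. Igf2 was at 2.52 CPM (2.43 to 2.61) at time 1, against 3.05 CPM (2.96 to 3.14) at time 2, a ratio of 0.20, and stayed under the 5 CPM minimum. Cdkn1c was at 31.3 CPM (30.9 to 31.6) and 25.2 CPM (24.9 to 25.4), a ratio of -0.30, and Igf2r at 23.4 CPM (23.1 to 23.7) and 16.4 CPM (16.2 to 16.7), a ratio of -0.48. Phlda2, close to Cdkn1c and under the same control region, was at 100.6 CPM (100.0 to 101.2) and 99.2 CPM (98.7 to 99.7). These sums mix states of very different size in the libraries. When both libraries were given the same cluster shares over the 9 clusters with at least 50 cells in each, the ratio of H19 was -0.84, with 89.4 CPM at time 1 and 49.6 CPM at time 2. Under the same weighting Cdkn1c changed direction, from 28.2 CPM to 36.2 CPM, a ratio of 0.35, and Igf2 had a ratio of 0.48. Within the pluripotent-like clusters alone, mostly Rhox9-led at time 1 and Mras- and Nanos3-led at time 2, the summed ratios of Igf2 and Phlda2 were -0.26 and 0.75. Inside those 4 clusters, one by one, Phlda2 was lower at time 2 (ratios -0.52 to -0.066), and Igf2 was higher in the Rhox9-led cells (1.71) and between -0.061 and 0.19 in the others. The Phlda2 intervals included 0 in the Mras-led (-0.21 to 0.021) and Rbfaos-led (-0.15 to 0.014) cells. Subtraction of free RNA, explained below, turned the Rbfaos-led ratio of Phlda2 to 0.66.

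Within single clusters H19 was lower at time 2 in 9 of the 9 compared outside the feeders, and by at least 2-fold in 6. With the free RNA limit explained below subtracted, it was lower in 6 of 9 and by at least 2-fold in 3 (T-led, Hand1-led and two-cell-like). The share of all genes lower by that much in those clusters was 0.872% (Mras-led), 2.89% (T-led), 0.916% (Rbfaos-led), 2.39% (Lhx1-led), 3.22% (Hand1-led) and 4.84% (two-cell-like, led by B020031M17Rik). Before subtraction the difference was smallest in the Rhox9-led cluster, named for a reproductive homeobox gene on the X, where H19 was at 174.1 CPM (172.8 to 175.5) at time 1, against 148.3 CPM (144.4 to 152.3) at time 2. After it the Rhox9-led cells were at 165.5 and 154.8 CPM, a ratio of -0.096, and the Nanos3-led (-0.015) and Lhx1-led (-0.070) cells differed less. That cluster held 53.4% of the H19 UMIs outside the feeders at time 1, with 29.7% of the cells, and 19.2% at time 2, with 3.13% of the cells. The largest difference was in a cluster led by T, the gene of the mesoderm factor Brachyury, and left unnamed: H19 was at 183.1 CPM (175.0 to 191.6) in 177 cells at time 1 and 24.4 CPM (23.7 to 25.0) in 4089 cells at time 2, a ratio of -2.86.

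The Rbfaos-led and Mras-led pluripotent-like clusters carried the least H19. In the Rbfaos-led cluster, which had the highest mean level of the pluripotency markers and Tbx3 among its leading genes, H19 was at 28.2 CPM (27.1 to 29.3) at time 1, against 5.98 CPM (5.58 to 6.41) at time 2. In the Mras-led cluster it was at 24.1 CPM (20.1 to 28.7) and 6.22 CPM (6.04 to 6.41). These time 1 levels lie under the 34.1 CPM that free RNA could have given at time 1. With that limit subtracted they were at 0 at time 1, against 3.66 and 3.91 CPM at time 2, so neither the size nor the direction of these differences can be told apart from background. The remaining clusters lay between: Sema6a-led cells went from 48.5 to 28.4 CPM, Nanos3-led cells from 59.1 to 30.05 CPM, Lhx1-led mesendoderm-like cells from 53.4 to 22.9 CPM and two-cell-like cells from 78.4 to 23.0 CPM. After the subtraction the Sema6a-led cells turned, with 17.03 CPM at time 1 and 27.5 CPM at time 2, and the Nanos3-led cells were at 29.5 and 29.2 CPM and the Lhx1-led cells at 22.8 and 21.6 CPM. Two-cell-like cells were then at 52.4 and 21.8 CPM. The Lhx1-led cluster also had the endoderm genes Gata6 and Sox17 among its leading genes, and the two-cell-like cluster had none of the chosen markers among its 10 leading genes. The same holds for the Rhox9-, Nanos3- and Mras-led clusters, called pluripotent-like from the mean of their pluripotency markers. In the Rhox9-led cluster that mean was -0.00075 (log2 against the other cells), below the 0.24 of its trophoblast markers. In 3 unnamed clusters found almost wholly at time 1 the level was 88.4 CPM (Ulk4-led), 79.1 CPM (Notch2-led) and 79.8 CPM (Card19-led, whose cells had a median of 352626 UMIs). H19 was at 76.0 CPM in Lyz2-led immune-like cells at time 1 and at 26.3 CPM in Srgn-led endoderm-like cells at time 2.

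**Figure D1:**
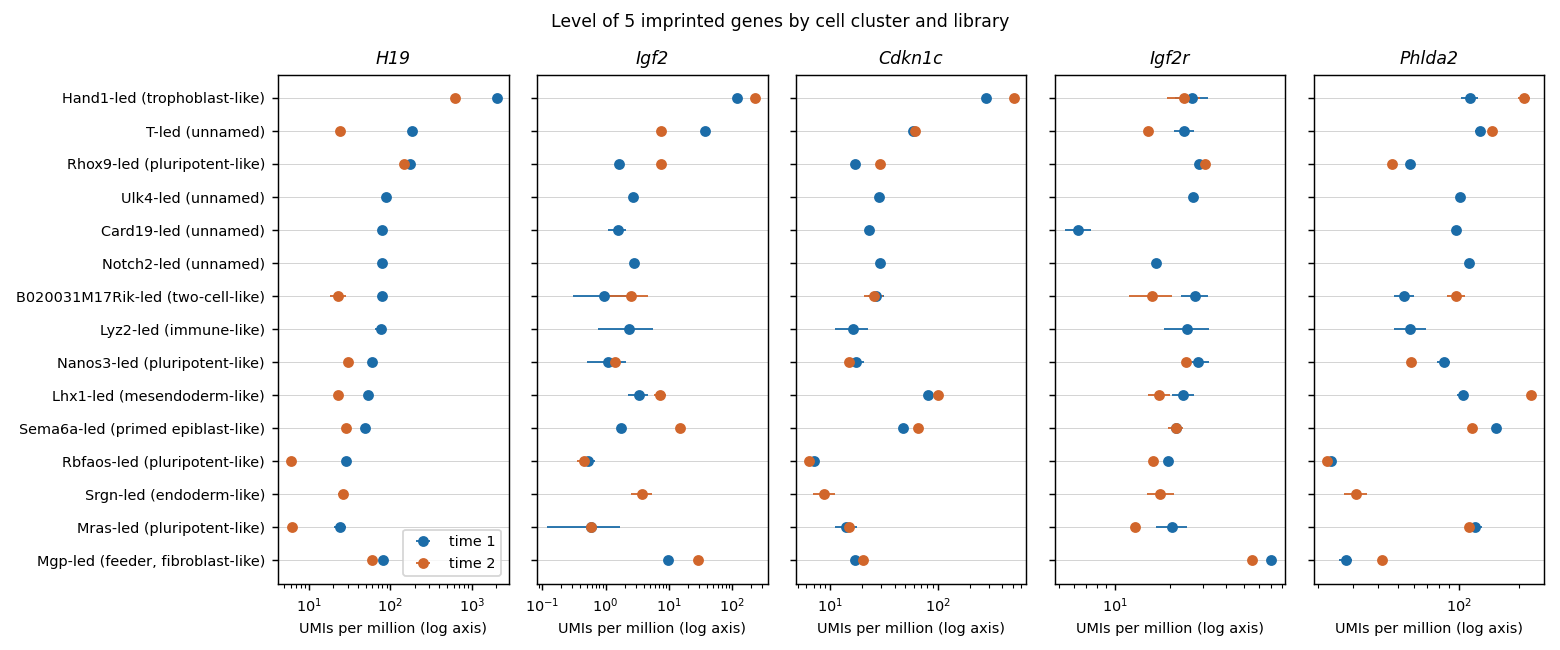
Level of each gene (CPM, log axis) in each cluster of at least 50 cells, at time 1 (blue) and time 2 (orange), with exact Poisson 95% intervals as horizontal bars; the feeders are the bottom row. H19, Igf2 and Cdkn1c are highest in the Hand1-led trophoblast-like cluster in both libraries, and H19 is lower at time 2 in every cluster shown at both times, before any subtraction of free RNA.

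Free RNA in the droplets sets a floor under these values. Barcodes with at most 2000 UMIs, 87019 at time 1 and 12280 at time 2, held H19 at 221.6 CPM and 43.7 CPM, above the cells' own average in each library. These barcodes had a median of 1388 and 720 UMIs and may include damaged cells, whose share was not tested. Collagen UMIs, which come from feeders, limit the share of free RNA in pluripotent-like cells to 15.4% at time 1 and 5.80% at time 2. At that limit free RNA would give 34.1 CPM of H19 at time 1 and 2.54 CPM at time 2. The same shares were applied to all clusters outside the feeders. The mean log2 ratio of the fibroblast markers was -0.46 in Notch2-led, -0.87 in Card19-led and -1.40 in Ulk4-led cells. It was -2.15 in Rhox9-led and -2.24 in Mras-led cells. In Lhx1-led, two-cell-like, Hand1-led and Sema6a-led cells it was -1.35, -1.54, -1.56 and -1.68. The limit comes from pluripotent-like cells, so for the other clusters, the 3 unnamed ones included, it is not shown to be an upper one. The time 1 level of H19 was at or below the limit in 2 of 13 clusters (Mras-led and Rbfaos-led), and no time 2 level was, over 10 clusters. With this limit subtracted, H19 outside the feeders was at 79.8 CPM at time 1 and 18.3 CPM at time 2, a ratio of -2.07. For Igf2 the limits were 1.017 CPM and 0.890 CPM, and 3 of 13 clusters at time 1 and 2 of 10 at time 2 were at or below them. Cdkn1c, Igf2r and Phlda2 were above their limits, taken from pluripotent-like cells in the same way, in every cluster outside the feeders in both libraries. Subtraction still turned the passage ratio in 2 of 9 clusters for Cdkn1c and 1 of 9 each for Igf2r and Phlda2, and in none for Igf2.

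H19 was also patchy from cell to cell. With each cell thinned to 10000 UMIs, 40.2% of cells outside the feeders (39.6% to 40.8%) had at least 1 UMI at time 1 and 9.80% (9.43% to 10.2%) at time 2, while with all UMIs the shares were 77.6% and 29.4%. Free RNA at its limit would give 28.9% and 2.50%. The shares of the Mras- and Rbfaos-led clusters at time 1 (20.9% and 24.0%), whose levels also lie under the limit, therefore cannot be told apart from background. The shares of the Sema6a- and Nanos3-led clusters (26.9% and 26.2%) lay under 28.9% too, while their levels lay above the 34.1 CPM limit. At time 1, 23.1% of cells had 1 UMI, 12.6% had 2 to 4, 2.90% had 5 to 9 and 1.61% had 10 or more, up to 95 in 1 cell. At time 2 these shares were 6.92%, 2.03%, 0.495% and 0.342%, up to 54. The few cells with 10 or more UMIs, 366 at time 1 and 85 at time 2, carried 28.5% and 27.4% of all H19 UMIs in the thinned cells. Trophoblast-like cells were 43 of those 366 and 19 of those 85.

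The spread of H19 between cells was far from that of other genes at its level. Its variance over its mean was 8.33 at time 1 and 7.65 at time 2, where genes with a mean within 1.2-fold had a median of 1.10 and 1.04. These values mix the clusters. Inside single clusters outside the feeders the value ran from 0.81 (Card19-led) to 21.8 (T-led), both at time 1. It was 8.77 and 9.38 in Rhox9-led cells at the 2 times, 1.28 and 1.23 in Rbfaos-led cells and 1.25 in Mras-led cells at time 2. In the T-led cluster at time 1 the median cell had 0 H19 UMIs and the highest 70, and 80.4% of the cluster's thinned H19 UMIs lay in the 10% of cells with the most. In the Rbfaos-led cluster no cell had more than 7 at time 1 or more than 3 at time 2.

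The other members ranged from even to patchy. Igf2r, the receptor, was the most even of the members, with a variance over mean of 1.09 and 1.15 and 20.7% and 15.2% of cells with a UMI. That variance over mean was still above 78.9% and 89.9% of genes with a mean within 1.2-fold. The same shares were 97.4% and 100% for Igf2, 99.8% and 99.7% for Cdkn1c and 98.2% and 97.7% for Phlda2, against 99.8% and 100% for H19. The shares for Cdkn1c were 20.7% and 16.2% with a variance over mean of 2.70 and 3.19, and those for Phlda2 were 48.1% and 48.4% with 2.40 and 2.16. Igf2 was found in 2.07% of cells at time 1 and 1.72% at time 2, against 1.01% and 0.886% that free RNA could give. Its UMIs were concentrated more at time 2, where 13 cells with 10 or more carried 22.0% of them, than at time 1, where 2 such cells carried 2.93%. With all UMIs the shares of cells were 6.18% and 5.47% for Igf2, 50.7% and 46.3% for Cdkn1c, 60.5% and 54.0% for Igf2r, and 78.0% and 80.4% for Phlda2.

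**Figure D2:**
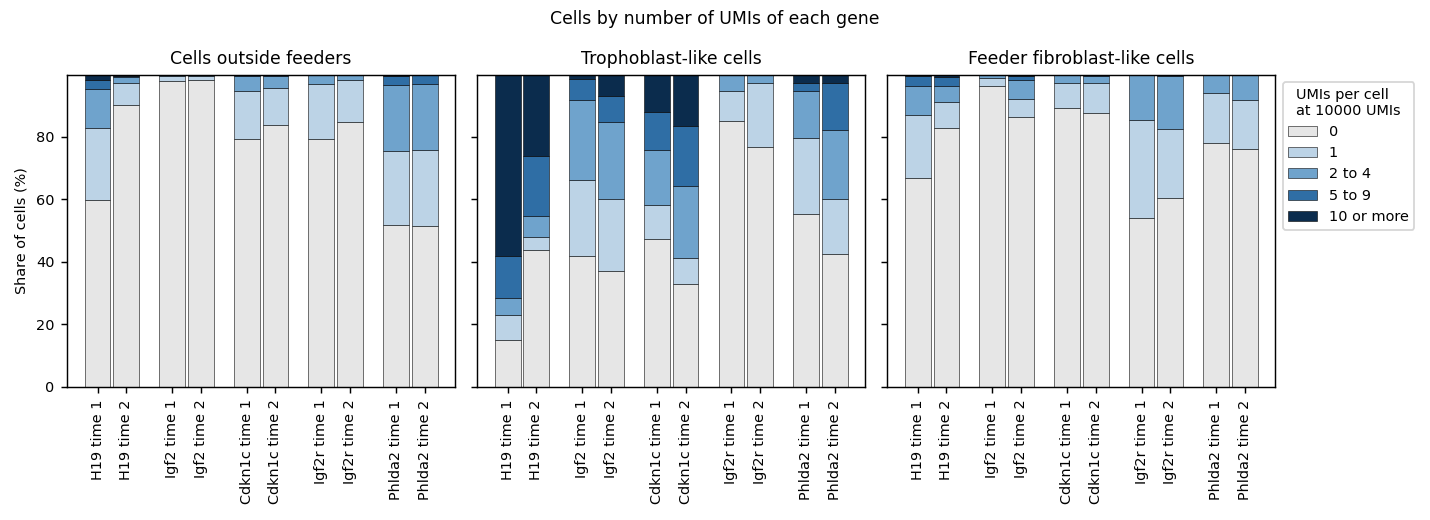
Share of cells (%) with 0, 1, 2 to 4, 5 to 9 and 10 or more UMIs of each gene at 10000 UMIs per cell, by library, for cells outside the feeders (left), trophoblast-like cells (middle) and feeders (right). The darkest blocks, cells with 10 or more UMIs, take 58.1% of trophoblast-like cells for H19 at time 1 and 26.03% at time 2, against 1.61% and 0.342% of all cells outside the feeders.

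Trophoblast-like cells held the highest levels of H19, Igf2 and Cdkn1c in both libraries. This small cluster, 74 cells at time 1 and 73 at time 2, was led by Hand1, a transcription factor of trophoblast, with Plac1, a placental gene, among its 10 leading genes. H19 was at 2048 CPM (2002 to 2094) there at time 1 and 612 CPM (589 to 636) at time 2, against 95.3 and 18.0 CPM in the other cells outside the feeders, or 21.5-fold and 34.0-fold higher. Igf2 was at 120.5 CPM (109.6 to 132.1) and 231 CPM (217 to 246), which was 56.3-fold and 96.7-fold higher. Cdkn1c was at 283 CPM (266 to 300.3) and 516 CPM (494 to 538), 9.29-fold and 21.7-fold higher. Among all genes tested, 9.62% at time 1 and 12.3% at time 2 were higher in these cells by at least 2-fold.

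Igf2r and Phlda2 differed less there. Igf2r was at 26.2 CPM (21.3 to 32.0) and 23.7 CPM (19.2 to 28.8) in trophoblast-like cells, 1.12-fold and 1.44-fold the level elsewhere. Phlda2, a placental gene in the animal, was at 114 CPM (103 to 125) and 211 CPM (197 to 226), which was 1.13-fold and 2.14-fold. Between the passages the sum of all trophoblast-like cells thus showed less H19 (ratio -1.74) with more Igf2 (0.93), Cdkn1c (0.86) and Phlda2 (0.88). This did not hold for H19 in the few Y-positive cells among them, given below. In this cluster 0.579% of genes tested were higher at time 2 by at least 2-fold. Although the cluster was 0.325% of cells outside the feeders at time 1 and 0.294% at time 2, it held 6.49% and 8.97% of H19 UMIs and 15.4% and 21.9% of Igf2 UMIs.

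Single trophoblast-like cells differed in how much H19 and Igf2 they carried. At time 1, H19 ranged from 0 to 95 UMIs at 10000 UMIs per cell with a median of 12, and at time 2 from 0 to 35 with a median of 2. At that depth Igf2 was found in 10 of the 11 cells with no H19 UMI at time 1 and in 25 of the 32 at time 2. Of the cells with 10 or more H19 UMIs, 22 of 43 had an Igf2 UMI at time 1 and 11 of 19 at time 2. A zero at this depth need not be a zero with all UMIs: 7 of the 11 cells and 5 of the 32 then had H19. With all UMIs, at depths that differ between cells, 4 cells had no H19 UMI at time 1 and 4 of them had Igf2, against 24 of 27 at time 2. Of cells with 10 or more H19 UMIs among all their UMIs, 35 of 55 had Igf2 at time 1 and 31 of 38 at time 2. Pearson's r between the log2 levels of the thinned cells was -0.41 over the 74 cells at time 1 and -0.32 over the 73 cells at time 2, and -0.46 and -0.22 with all UMIs. In the T-led cluster it was positive, 0.31 over 177 cells and 0.30 over 4089 cells, and 0.42 and 0.25 with all UMIs. The cells of each library are 1 sample, so these values are descriptions. The makeup by line is unknown, and by X dosage, explained below, the trophoblast-like cells were 53 X-high, 6 X-low and 8 Y-positive at time 1 and 47, 17 and 7 at time 2. H19 was at 2410 and 673 CPM in the X-high cells, 1169 and 145 CPM in the X-low cells and 294 and 1057 CPM in the Y-positive cells. Igf2 was at 90.7 and 224 CPM, 267 and 273 CPM, and 196 and 235 CPM in the same order.

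**Figure D3:**
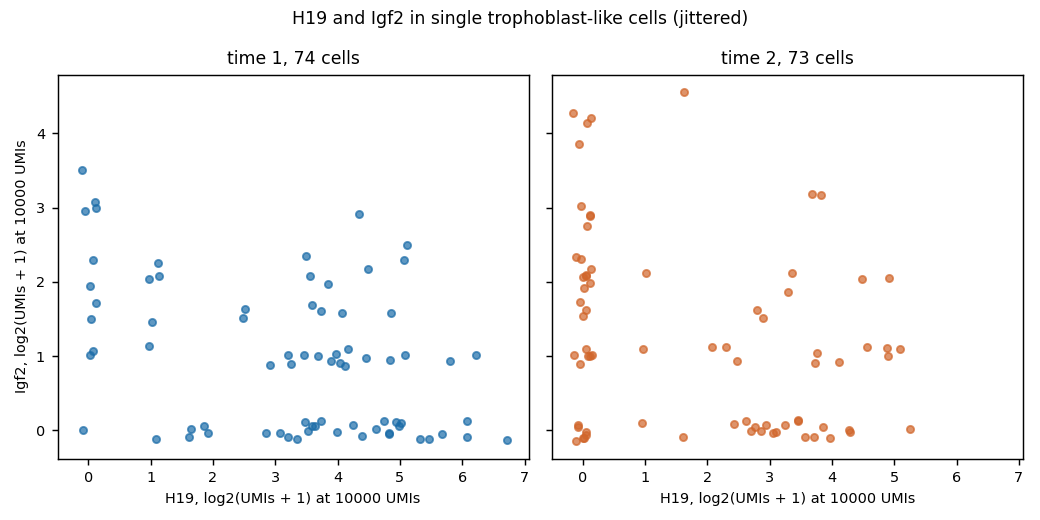
H19 (horizontal) against Igf2 (vertical), each as log2(UMIs + 1) at 10000 UMIs, in single trophoblast-like cells at time 1 (left, 74 cells) and time 2 (right, 73 cells), with a small random shift so that points do not hide each other. The column of cells with no H19 UMI at this depth holds 11 cells at time 1 and 32 at time 2, of which 10 and 25 have Igf2.

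Igf2, the growth factor, moved in opposite directions in different states with passage. It was higher at time 2 in the Sema6a-led primed-like cluster, at 1.77 CPM (1.65 to 1.91) and then 15.2 CPM (13.6 to 16.9), a ratio of 2.54, and in the Rhox9-led cluster, at 1.63 CPM (1.496 to 1.76) and 7.60 CPM (6.74 to 8.54), a ratio of 1.71. In these clusters 0.912% and 0.142% of genes tested were higher by at least 2-fold. In the T-led cluster Igf2 was lower, at 37.7 CPM (34.1 to 41.7) and then 7.60 CPM (7.25 to 7.96), a ratio of -2.17. The Igf2 UMIs of the T-led cells at time 1 were also in few cells: at 10000 UMIs 85.9% of the 177 cells had none, and the 10% of cells with the most held 90.9% of them. The Igf2 UMIs of the Sema6a-led cluster at time 2 lay in few cells, since 6.07% of its 461 cells had one and 0.434% had 10 or more. In the Lhx1-led mesendoderm-like cluster Igf2 was at 3.31 CPM (2.26 to 4.67) and 7.19 CPM (5.74 to 8.89). The Mras- and Rbfaos-led clusters had 0.579 and 0.524 CPM at time 1 and 0.581 and 0.461 CPM at time 2, all at or below the free RNA limit, as was the two-cell-like cluster at time 1. Intervals of the difference included 0 for those clusters as well as for the Nanos3-led cells (1.10 and 1.397 CPM) and the two-cell-like cells (0.932 and 2.50 CPM). In Ulk4-, Notch2-, Card19- and Lyz2-led cells at time 1 Igf2 was between 1.55 and 2.78 CPM, and in Srgn-led endoderm-like cells at time 2 it was at 3.74 CPM (2.52 to 5.33).

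Cdkn1c, the kinase inhibitor, differed more between clusters than between passages. Its lowest levels were in the Rbfaos-led cluster, at 7.08 CPM (6.55 to 7.64) and 6.39 CPM (5.97 to 6.83). It was at 47.7 CPM (47.1 to 48.4) and 65.3 CPM (62.0 to 68.7) in the Sema6a-led primed-like cells, 58.5 CPM (53.9 to 63.3) and 61.0 CPM (60.0 to 62.0) in the T-led cells and 81.4 CPM (75.8 to 87.3) and 101.9 CPM (96.2 to 107.8) in the Lhx1-led mesendoderm-like cells. Its passage ratios over the 10 clusters, feeders included, lay between -0.21 and 0.86, none past 2-fold. Of the Cdkn1c UMIs at time 1, 53.5% were in the Sema6a-led cluster, and at time 2 the T-led cluster held 40.0%.

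Phlda2 had its lowest level in the same Rbfaos-led cells, at 23.4 CPM (22.4 to 24.4) and 22.3 CPM (21.5 to 23.1). It was highest at time 1 in the Sema6a-led cells, at 154.0 CPM (152.8 to 155.2), with 116.4 CPM (112.1 to 121.0) there at time 2, and highest at time 2 in the Lhx1-led cells, at 228 CPM (219 to 237), with 105.0 CPM (98.6 to 111.6) at time 1. The Lhx1-led cluster, with a ratio of 1.11, was the only one of 10 in which Phlda2 was past 2-fold before free RNA was subtracted, and there 1.12% of genes tested were higher by that much. After subtraction Phlda2 was higher by at least 2-fold in 2 of 9 clusters, the Lhx1-led (1.13) and the two-cell-like (1.03). Phlda2 in the Mras-led cluster, the largest at time 2, was at 120.8 CPM (111.6 to 130.7) and 113.3 CPM (112.5 to 114.1), intervals that overlap. In the Rhox9-led cells it was at 57.3 and 47.0 CPM, and in the Nanos3-led cells at 84.3 and 58.3 CPM.

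Igf2r varied least between states. Outside the feeders its cluster levels ran from 6.34 CPM (Card19-led) to 28.4 CPM (Rhox9-led) at time 1 and from 12.9 CPM (Mras-led) to 30.8 CPM (Rhox9-led) at time 2. It was lower at time 2 in 8 of 9 clusters, never by 2-fold, with ratios from -0.75 in the two-cell-like cells to 0.11 in the Rhox9-led cells. For the Sema6a-led cells, at 21.5 and 21.4 CPM, the interval of the ratio was -0.14 to 0.13.

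Feeder fibroblasts had a different pattern of the members, and were kept apart. H19 was at 81.2 CPM (77.7 to 84.7) in 421 feeder-like cells at time 1 and 59.7 CPM (57.7 to 61.9) in 698 at time 2. At 10000 UMIs it was found in 33.3% and 17.2% of feeders. The free RNA limits of H19 in pluripotent-like cells, 34.1 and 2.54 CPM or 28.9% and 2.50% of cells, were not subtracted here. The part of free RNA in the H19 difference between feeders was not tested. A single feeder at time 2 held 541 of the 3138 H19 UMIs. Igf2 was at 9.67 CPM (8.50 to 10.95) and 29.2 CPM (27.7 to 30.7), a ratio of 1.499, where 1.1% of the 9932 genes tested in feeders were higher by at least 2-fold and 1.71% were lower. It was found in 3.56% and 13.6% of feeders at 10000 UMIs. Igf2r was at 70.3 CPM (67.1 to 73.6) and 55.4 CPM (53.4 to 57.4), above its level in every other cluster in both libraries. Cdkn1c was at 17.1 CPM (15.6 to 18.8) and 20.4 CPM (19.2 to 21.7), and Phlda2 at 27.5 CPM (25.5 to 29.6) and 41.8 CPM (40.1 to 43.6). Whether the same batch of feeders was used at both times is not given in the sources used here, and its part in the Igf2 difference was not tested.

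The pool holds lines with 1 and with 2 X chromosomes, so cells were also classed by X dosage. This was the UMIs of 398 X-linked genes over those of 11255 autosomal genes, a measure that uses none of the members. Y-positive cells had at least 2 UMIs of 4 Y-linked genes, and cells with 1 such UMI were given no class. X-high and X-low cells had no such UMI. X-high cells had a ratio at least 1.2 times the median of Y-positive cells of their library, and X-low cells had a lower ratio. The classes held 8140 X-high, 9527 X-low and 2529 Y-positive cells at time 1 and 3126, 18247 and 1998 at time 2. X-low cells can be XO, XX after loss or silencing of an X, or XY cells without a sampled Y UMI.

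H19 was higher and Phlda2 lower in X-high cells of both libraries. H19 was at 173.7 CPM (172.4 to 174.9) in X-high and 56.3 CPM (55.6 to 57.0) in X-low cells at time 1, a ratio of 1.61, and at 49.8 CPM (48.7 to 50.8) and 15.0 CPM (14.8 to 15.2) at time 2, a ratio of 1.67. With the free RNA limit subtracted the ratios of H19 were 2.61 at time 1, from 164.9 and 26.2 CPM, and 1.85 at time 2. Phlda2 was at 37.6 CPM (37.0 to 38.2) and 134.3 CPM (133.3 to 135.4) at time 1, a ratio of -1.81, and at 33.1 CPM (32.3 to 33.9) and 107.6 CPM (106.9 to 108.2) at time 2, a ratio of -1.67. Of all genes tested at time 1, 2.7% were higher and 1.92% lower in X-high cells by at least 2-fold, and at time 2 these were 3.13% and 0.44%. Y-positive cells, with 1 X, were near X-low cells: H19 was at 51.2 CPM (50.05 to 52.3) and 17.2 CPM (16.5 to 17.9) there, and Phlda2 at 154.9 CPM (152.9 to 156.8) and 123.9 CPM (122.0 to 125.8).

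Cdkn1c went the same way as Phlda2 at time 1, at 14.2 CPM (13.9 to 14.6) in X-high and 38.9 CPM (38.3 to 39.5) in X-low cells, a ratio of -1.39. At time 2 it was at 19.9 CPM (19.3 to 20.5) and 25.4 CPM (25.0 to 25.7), a ratio of -0.34. Igf2r differed little, with ratios of 0.28 and 0.31. Igf2 was at 1.87 CPM (1.74 to 2.00) in X-high and 2.47 CPM (2.33 to 2.62) in X-low cells at time 1, and at 5.66 CPM (5.32 to 6.01) and 2.40 CPM (2.31 to 2.50) at time 2. The X-high cells at time 2 include 47 trophoblast-like cells, with Igf2 at 224 CPM. Among pluripotent-like cells alone Igf2 was then at 1.43 CPM in X-high and 0.884 CPM in X-low cells. At time 2 only 12.8% of X-low cells had no called autosomal gain, against 82.1% of X-high cells. Among cells without such a gain at time 2, the ratio was 1.04 for H19, -1.93 for Phlda2, -1.71 for Cdkn1c and -0.66 for Igf2, which changed direction.

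The contrast between X-high and X-low cells was present inside clusters as well as between them. With at least 50 cells of each class required, H19 was higher in X-high cells in 4 of 4 clusters at time 1 (ratios 0.38 to 1.90) and 5 of 5 at time 2 (0.48 to 1.99), and Phlda2 was lower in 4 of 4 (-2.21 to -0.30) and 5 of 5 (-1.51 to -0.44). For H19 in the Rbfaos-led cluster at time 2 the interval included 0. In the Rhox9-led cluster at time 1, X-high cells had 257 CPM of H19 and 20.3 CPM of Phlda2, and X-low cells of the same cluster had 78.2 and 97.7 CPM. The smallest differences at time 1 were in the unnamed Notch2-led and Ulk4-led clusters, whose ratios for H19 were 0.44 and 0.38. Cdkn1c was lower in X-high cells in 4 of 4 clusters at time 1 and 3 of 5 at time 2.

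**Figure D4:**
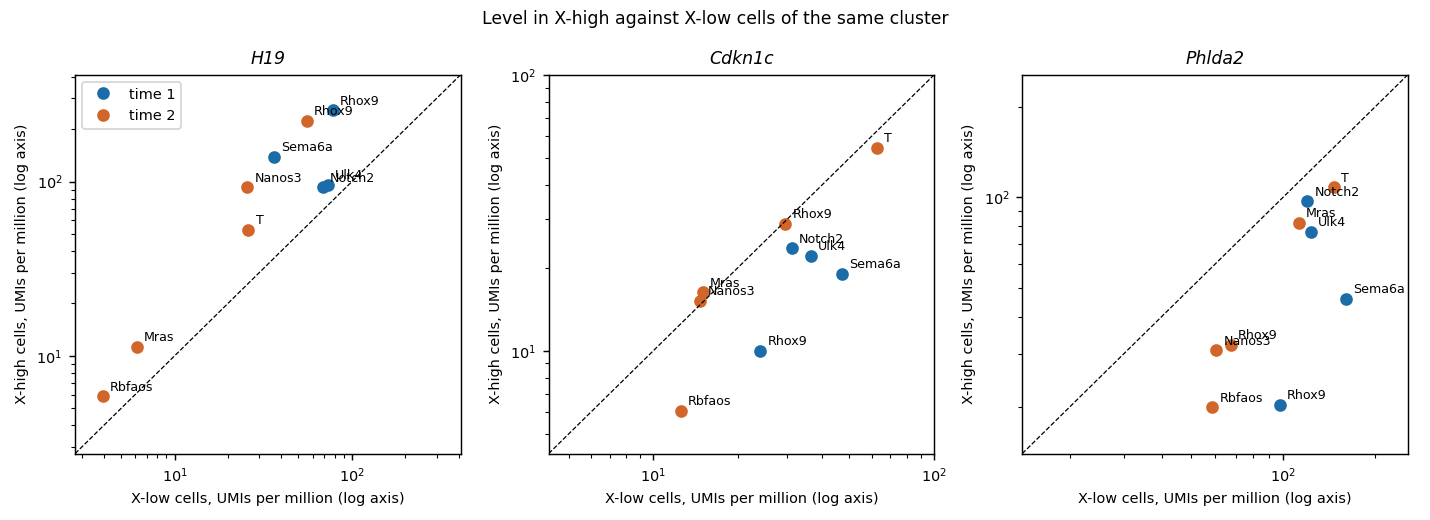
Level of H19, Cdkn1c and Phlda2 in X-high cells (vertical, CPM, log axis) against X-low cells of the same cluster and library (horizontal, log axis), at time 1 (blue) and time 2 (orange), with the line of equal levels dashed. All 9 points lie above the line for H19 and below it for Phlda2, and the Cdkn1c points of time 1 lie below it.

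H19 was lower at time 2 inside each X class as well, but the cluster makeup of the classes also differed. X-high cells included 3392 Rhox9-led cells at time 1, against 399 Rhox9-led and 1949 Rbfaos-led cells at time 2. X-low cells included 4635 Sema6a-led cells at time 1 and 9816 Mras-led cells at time 2. In the Rhox9-led cluster H19 was at 257 and 224 CPM in X-high and 78.2 and 55.7 CPM in X-low cells. The part of cluster makeup in the class ratios was not tested. Within X-high cells the passage ratio was -1.78, within X-low cells -1.84 and within Y-positive cells -1.52, all smaller in size than the -2.31 of the mixture. With the free RNA limit subtracted these were -1.70, -0.94 and -0.35, from 164.9, 26.2 and 20.2 CPM at time 1 to 50.1, 13.2 and 15.6 CPM at time 2. The corresponding ratios for Phlda2 were -0.18, -0.32 and -0.32, and subtraction turned the first to 0.11. For Cdkn1c they were 0.46, -0.60 and -0.53, so that its direction with passage differed between X-high cells and the others. With 1 library per time that difference was not tested. The trophoblast-like cells, mostly X-high, held 1056 and 2158 Cdkn1c UMIs, and all X-high cells 5856 and 3741. Among pluripotent-like cells alone Cdkn1c was at 8.89 and 10.3 CPM in X-high and 23.7 and 15.1 CPM in X-low cells. Few cells were called as gaining chromosome 7, which holds H19, Igf2, Cdkn1c and Phlda2, with 0.105% at time 1 and 0.0201% at time 2. Chromosome 7 UMIs were also taken as a share of each cell's autosomal UMIs, relative to the median of pluripotent-like cells at time 1. The median cell was at 0.981 at time 1 and 0.897 at time 2. A gain of another autosome also lowers this share, and its part in the member levels was not tested.

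Of 15 neighbouring genes listed for the imprinted region of distal chromosome 7, chosen by place, 6 were at 5 CPM or more. None of these was higher and 1 was lower at time 2 by at least 2-fold, against 1.07% and 3.3% of all genes. Ascl2, a maternally expressed trophoblast transcription factor, was the lowest, at 12.9 and 4.47 CPM (ratio -1.34), and Kcnq1ot1, the noncoding RNA that silences the Cdkn1c and Phlda2 domain on the paternal chromosome, was the highest, at 99.3 and 131.9 CPM (0.41). Around Igf2r, 2 of 8 genes were tested and neither passed 2-fold: Tcp1 had a ratio of 0.10 and Acat2 of -0.11. The median ratio was -0.33 for the distal chromosome 7 list and -0.0016 for the Igf2r region, against -0.048 for all genes.

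Genes that act with the members were counted in the same way, on sums that mix the clusters, against the 3.3% of all genes lower and 1.07% higher by at least 2-fold. Of 12 genes of IGF signalling tested, 2 were lower by at least 2-fold and none was higher, with a median of -0.45: Igfbp3, which binds IGFs outside the cell, was at 30.8 and 11.3 CPM (-1.37), the receptor Igf1r at 24.8 and 10.9 CPM (-1.11), and the highest was Igf2bp3, an RNA-binding protein of Igf2 mRNA, with a ratio of 0.25. Of 6 cyclin-dependent kinase inhibitors and Phlda relatives tested, 1 was lower, Phlda1 at 32.1 and 13.7 CPM (-1.17), and Phlda3 was the highest with 0.094, the median being -0.57. Among 12 genes of a list for imprint maintenance, which also holds demethylation enzymes, 2 were higher and none was lower, with a median of 0.39. They were Zfp42, also 1 of the 12 pluripotency markers, at 46.4 and 114.9 CPM (1.29), and Tet2. Tet2, a demethylation enzyme, was at 13.2 and 28.0 CPM (1.03). Zfp57, which protects methylated imprints, was at 24.7 and 46.7 CPM (0.89), and Dppa3 had the lowest ratio, -0.46. A wider list of imprinted growth genes also holds the members H19, Cdkn1c and Igf2, of which H19 and Cdkn1c were tested. Of its 10 genes tested, H19, whose low level was known beforehand, and Sgce were lower by at least 2-fold, and none was higher. Sgce was at 9.38 and 3.12 CPM (-1.33), Peg3 had the highest ratio, -0.21, and the median was -0.40. This count is thus not apart from the members.

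Over the 23 sums of clusters by library outside the feeders, Pearson's r of log2(CPM + 1) was 0.87 between Igf2 and Cdkn1c, 0.75 between Cdkn1c and Phlda2, 0.72 between H19 and Igf2 and 0.65 between H19 and Cdkn1c. Without the 2 trophoblast-like sums these were 0.69, 0.80, 0.38 and 0.29, so the likeness of H19 to Igf2 and Cdkn1c rests in large part on those sums. The highest r of Igf2r with another member was 0.43, with H19. The sums share 2 libraries and differ in depth, and these values describe them with no test. Among 7589 genes, those most like H19 were Chst12 (r = 0.92), Dusp8, Pcgf5, Fthl17a and Tnnt3 (0.89), the last of which lies near H19 on distal chromosome 7. Without the trophoblast-like sums they were Gnb1 (0.86), Dusp8, Cln6, Tnnt3 and Chst12 (0.81). Those most like Igf2 were Zwint (0.93), Frmd8, Batf3, Rhou and Vasp (0.90), and without those sums Batf3 (0.80), Zwint, Vasp, Prkar1a and Kdr (0.78). Cdkn1c was most like Gpc1 (0.96), Nbl1, Cdx2, Tpm2 and Card10 (0.90), and Phlda2 was most like Tpm2 (0.81), Myl9, Trappc4, Pclaf and Mcrip1 (0.77). Without those sums Cdkn1c was most like Gpc1 (0.93), Ctxn1, Igfbp3, Fzd2 and Plekhg2 (0.90), and Phlda2 most like Psmb10 (0.85), Tpm2, Pclaf, Timm21 and Rab34 (0.80).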

How the data were processed

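Single-cell 3' libraries of the pooled lines were analysed from the deposited count matrices. The authors' UMI counts were made with Cell Ranger 6.1.2 (and bcl2fastq 2.20.0.422) on GRCm38 (mm10), per the submitters' processing notes, and the deposited counts are whole numbers of UMIs per gene and barcode, not normalized. The matrices held 145288 barcodes and 1735810403 UMIs at time 1, and 52242 barcodes and 1843588321 UMIs at time 2, and 2155 barcodes occurred in both. The smallest barcode had 500 and 524 UMIs.

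Barcodes with at least 18315 (time 1) or 18646 (time 2) UMIs, 0.1 times the 99th percentile of the 20000 largest, 1000 or more detected genes and mitochondrial UMIs up to 10% were kept. The cells with the highest scrublet doublet scores, up to 10%, were removed in each library, which took out 9.87% at time 1 and 9.65% at time 2. The automatic threshold marked 0% at time 1 and 8.10% at time 2, and the choice was made after seeing that. Both libraries were clustered together (scanpy 1.11.5, 2000 variable genes, 30 principal components, 15 neighbours, Leiden resolution 0.5). Only autosomal genes were used, leaving out 28 genes: the 5 members and the chosen genes around them. Leading genes were taken from all chromosomes. Clusters were named from marker lists. The name was that of the class with the highest mean log2 ratio of its markers, if at least 1.5 with 3 or more detected. Otherwise pluripotent-like was used if the pluripotency mean was at least -0.1. That naming rule was set after the clusters were seen. Names rebuilt in this way may differ from those of the study.

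Levels are UMIs summed over cells, scaled to a total of 1000000 (CPM), and ratios are differences of log2(CPM + 1). A gene was called lower or higher at 2-fold, among genes that reached 5 CPM in 1 of the groups. Shares of cells with a UMI were taken after thinning each cell to 10000 UMIs, and no cell was shallower. The free RNA limit was set by collagen UMIs in pluripotent-like cells and applied to all clusters outside the feeders. A gain was called where an autosome's share of a cell's autosomal UMIs was at least 1.3 times the median of pluripotent-like cells at time 1. X dosage, gains and the chromosome 7 share used 398 X-linked and 11255 autosomal genes, found in at least 5% of pluripotent-like cells in each library. Ribosomal protein genes, Xist, the members and genes with over 3% of their chromosome's UMIs were left out of these. The ratio computation was tested on simulated data.

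The members and the gene lists were chosen with earlier results of these data known. The genes named are the members, for each list those past 2-fold with its largest and smallest ratio, and the 5 genes with the highest correlation to H19, Igf2, Cdkn1c and Phlda2, each also without the trophoblast-like sums where the text says so. Zfp57 was named after its value was seen. Alternatives tried were the pseudocount, TMM scaling (edgeR 4.0.16), doublets, UMI, mitochondrial and expression minimums, the cells included, thinning, clustering genes, X-high limit and autosomal gains. Those chosen after seeing the data were subtraction of free RNA from barcodes with at most 2000 UMIs (over all cells, per cluster, per X class and for X-high over X-low), equal cluster shares, leaving out the trophoblast-like cluster or unnamed clusters, single X classes, and all UMIs in place of thinned cells for H19 against Igf2.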

Additional observations from a re-analysis of the deposited data

Results flagged for a closer look

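Igf2 differed in opposite directions between cell states under the same comparison of time 2 with time 1. It was higher at time 2 in the Sema6a-led primed-like cluster (log2 ratio 2.54, from 1.77 to 15.2 CPM), in the Rhox9-led pluripotent-like cluster (1.71, from 1.63 to 7.60 CPM) and in the Mgp-led feeders (1.499, from 9.67 to 29.2 CPM). It was lower in the T-led cluster (-2.17, from 37.7 to 7.60 CPM), where at time 1 the 10% of cells with the most held 90.9% of the Igf2 UMIs of the thinned cells. With 1 library per time the difference between these clusters was not tested. The T-led cluster had 177 cells at time 1, and the Sema6a-led and Rhox9-led clusters had 461 and 776 cells at time 2, so these 3 contrasts each set a large group of cells against a small one. The feeders had 421 and 698 cells.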

How the results depend on the processing

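Over 141 values recomputed under an alternative, 40 moved by less than their counting interval, 92 moved by more (1 of these, a share of genes, has no such interval) and 9 changed direction, 1 of them (the share of cells with 2 UMIs of Phlda2) within its interval. For the passage ratio summed outside the feeders, H19 was lower at time 2 under every alternative run, between -3.04 and -0.84. With free RNA subtracted cluster by cluster, H19 was higher at time 2 in 3 of 9 clusters. Equal cluster shares and free RNA subtraction were not combined. A pseudocount of 5 CPM gave -2.11 for H19, 0.098 for Igf2, -0.26 for Cdkn1c and -0.40 for Igf2r. TMM scaling gave -2.18 for H19, 0.30 for Igf2, -0.17 for Cdkn1c and -0.36 for Igf2r, and turned Phlda2 to 0.11. With feeders included the ratios were -2.21 for H19, 0.43 for Igf2 and -0.43 for Igf2r. Pluripotent-like cells alone gave -3.04 for H19, -0.061 for Cdkn1c and -0.65 for Igf2r, and turned Igf2 to -0.26 and Phlda2 to 0.75. The mean over thinned cells gave -2.24 for H19, -0.28 for Cdkn1c and -0.042 for Phlda2. Subtracting free RNA gave -2.07 for H19, -0.38 for Cdkn1c and -0.36 for Igf2r. Equal cluster shares gave -0.84 for H19, 0.48 for Igf2, -0.18 for Igf2r and -0.18 for Phlda2, and turned Cdkn1c to 0.35. Leaving out the trophoblast-like cluster gave -2.34 for H19, 0.11 for Igf2 and -0.34 for Cdkn1c, and leaving out 3 unnamed clusters of time 1 gave -2.38 for H19, -0.34 for Cdkn1c, -0.53 for Igf2r and -0.00049 for Phlda2. X-high cells alone gave -1.78 for H19, 1.22 for Igf2, -0.39 for Igf2r and -0.18 for Phlda2, and turned Cdkn1c to 0.46. X-low cells alone gave -1.84 for H19, -0.60 for Cdkn1c, -0.43 for Igf2r and -0.32 for Phlda2, and turned Igf2 to -0.029. Y-positive cells alone gave -1.52 for H19, -0.53 for Cdkn1c, -0.41 for Igf2r and -0.32 for Phlda2. Keeping doublets gave -0.27 for Cdkn1c, as did a minimum of 5000 UMIs. A minimum of 50 CPM put the share of genes lower by at least 2-fold at 2.19%.

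For the difference in the share of cells with a UMI, in percentage points, all UMIs gave -48.3 for H19, -0.71 for Igf2, -6.50 for Igf2r and 2.46 for Phlda2, and 5000 UMIs per cell gave -20.9, -0.086 and -2.88 for H19, Igf2 and Igf2r and -2.73 for Cdkn1c. Asking for 2 UMIs gave -14.2 for H19, -1.01 for Cdkn1c and -1.32 for Igf2r, and turned Igf2 to 0.061 and Phlda2 from 0.36 to -0.50. Pluripotent-like cells alone gave -35.1 for H19, -0.22 for Cdkn1c, -7.69 for Igf2r and 17.3 for Phlda2.

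For X-high over X-low cells, a limit of 1.4 gave 1.31 for H19, -0.71 for Igf2, -1.62 for Cdkn1c and -2.24 for Phlda2 at time 1, and 1.25, 0.044, -0.97 and -2.13 in the same order with 0.22 for Igf2r at time 2. Pluripotent-like cells alone gave 1.29 for H19, -1.32 for Cdkn1c, 0.23 for Igf2r and -2.18 for Phlda2 at time 1, and 1.70 for H19, 0.37 for Igf2, -0.51 for Cdkn1c and -1.87 for Phlda2 at time 2. Cells with no called autosomal gain gave 1.51 for H19 and -0.45 for Igf2 at time 1, and 1.04 for H19, -1.71 for Cdkn1c, 0.22 for Igf2r and -1.93 for Phlda2 at time 2, where Igf2 turned to -0.66. Subtracting free RNA gave 2.61 for H19, -0.44 for Igf2, -1.57 for Cdkn1c, 0.36 for Igf2r and -2.27 for Phlda2 at time 1, and 1.85 for H19, 1.22 for Igf2 and -1.79 for Phlda2 at time 2. Where an alternative used fewer or other cells its own construction sets the change, and otherwise the cause was not tested.

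No paired analysis was possible because there is 1 library per time and cells cannot be assigned to lines. Subtraction of a profile from barcodes with at most 100 UMIs was not run, since 0 barcodes are that small. Igf2 levels in the Mras- and Rbfaos-led clusters at both times and in the two-cell-like cluster at time 1 are at or below the free RNA limit, so they give no ratio that can be read.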
